A study of Mus musculus with 10 samples.

Results

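The genes described here are the mouse Fc gamma receptors Fcgr1, Fcgr2b, Fcgr3 and Fcgr4 and Fcer1g, the adaptor that the activating receptors share. They were taken by symbol, and all 5 had an entry among the 52181 entries of the expression table, of which 16620 held at least 1 unique molecular identifier (UMI, the tag that counts 1 captured mRNA molecule). They were followed in 1168 microglia and macrophages captured by 3′ droplet single-cell RNA sequencing. The cells came from wildtype mice of strain 129S1/SvlmJ and of both sexes, which were 10 weeks old at collection, although the sample labels also carry postnatal day 56. The groups were optic nerve 2 weeks after an optic nerve crush, which had been made at 8 weeks, optic nerve without injury, retina 2 weeks after crush, and retina without injury. The crush severs the axons of retinal ganglion cells. The 4 injured retina samples stood in the table as 2 pools of 2 samples, which left 8 libraries and 2 per group. Nothing in the labels says how many animals gave a library, so p-values measure the spread between libraries, which may be partly technical.

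Fc gamma receptors bind the constant part of immunoglobulin G and let microglia and macrophages take up antibody-coated targets. Fcgr1, Fcgr3 and Fcgr4 encode activating receptors, with Fcgr1 binding monomeric antibody most tightly. They have no signalling motif of their own and depend on the common gamma chain, the product of Fcer1g, whose activation motif recruits the kinase Syk. Fcgr2b encodes the inhibitory receptor, which carries an inhibitory motif in its own tail and recruits the lipid phosphatase encoded by Inpp5d. Tyrobp encodes DAP12, a related adaptor that serves other myeloid receptors, and its values are given where they bear on Fcer1g.

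The promoters of 3 receptors are shown because they share a short purine-rich element, GAGGAA, the core bound by the myeloid factor PU.1. The windows run from 250 bases before to 50 bases after the transcript start in RefSeq (build GRCm38.p6), are written 5′ to 3′ on the gene's strand, and have each match in capitals. Fcgr1 lies at chr3:96293920-96294219 on the minus strand, Fcgr3 at chr1:171059345-171059644 on the minus strand (a nearby second RefSeq start is not shown), and Fcgr4 at chr1:171018676-171018975 on the plus strand.
Fcgr1: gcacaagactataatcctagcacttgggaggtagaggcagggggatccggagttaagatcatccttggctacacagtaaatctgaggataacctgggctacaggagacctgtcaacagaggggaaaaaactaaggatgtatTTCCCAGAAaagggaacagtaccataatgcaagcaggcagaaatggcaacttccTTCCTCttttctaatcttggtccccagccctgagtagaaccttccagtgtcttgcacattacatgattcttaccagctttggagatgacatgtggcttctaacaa
Fcgr3: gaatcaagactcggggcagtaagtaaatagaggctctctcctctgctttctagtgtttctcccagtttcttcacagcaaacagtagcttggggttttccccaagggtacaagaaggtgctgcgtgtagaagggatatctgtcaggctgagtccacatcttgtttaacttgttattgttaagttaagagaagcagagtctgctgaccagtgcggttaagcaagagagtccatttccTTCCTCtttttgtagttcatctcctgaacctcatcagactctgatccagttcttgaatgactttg
Fcgr4: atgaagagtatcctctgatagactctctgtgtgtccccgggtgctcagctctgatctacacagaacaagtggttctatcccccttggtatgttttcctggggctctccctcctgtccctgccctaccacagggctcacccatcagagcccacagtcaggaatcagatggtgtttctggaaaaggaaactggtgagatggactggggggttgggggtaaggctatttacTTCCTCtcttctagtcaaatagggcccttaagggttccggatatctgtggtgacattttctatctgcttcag
GAGGAA, read on both strands, began 55 bases before the start in Fcgr1, 15 bases before it in Fcgr3 and 22 bases before it in Fcgr4. Each time it stood as its reverse complement TTCCTC. The Fcgr1 window also held TTCNNNGAA, the form recognised by STAT factors after interferon gamma, beginning 109 bases before the start. The 2 elements did not overlap. Of all 32851 promoter windows of 300 bases, 28.3% held GAGGAA and 8.30% held TTCNNNGAA. The windows of Fcgr2b and Fcer1g held neither string. A match is a string of letters and not a measured binding site.

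In the GENCODE M21 annotation (GRCm38) Fcgr2b (ENSMUSG00000026656, chr1:170958617-170976547, minus strand), Fcgr4 (ENSMUSG00000059089, chr1:171018920-171029761, plus strand) and Fcgr3 (ENSMUSG00000059498, chr1:171051174-171064935, minus strand) lie within 106.3 kb of each other. Fcer1g (ENSMUSG00000058715, chr1:171229572-171234365, minus strand) follows 164.6 kb further on. Fcgr1 (ENSMUSG00000015947, chr3:96282909-96293969, minus strand) lies on another chromosome. The antisense gene Gm38204 overlaps Fcgr2b, and the strand setting of the counting is not given in the sources used here. Whether reads of those 2 genes were kept apart by strand is therefore not known here. On the same strand as the receptor gene, the snRNA gene Gm26110 overlaps Fcgr4 and the miRNA gene Mir6546 overlaps Fcgr3. Of the 31-base words in the last 500 bases of the coding transcripts, 76 of 1489 from Fcgr2b also occur in Fcgr3 transcripts and 5 of 960 from Fcgr3 also occur in Fcgr2b, so part of the reads of this pair could have been dropped or split. Fcgr1 and Fcer1g shared 0 of 470 and 0 of 570 words with any other gene, and Fcgr4 shared 16 of 470 with genes other than the receptors.

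The libraries differed in depth and in the cells they held. They carried 56838 to 5234954 UMIs in 12 to 682 cells, with a median per cell from 1078 UMIs in injured nerve library 1 to 12989 UMIs in the injured retina pool of samples 1 and 2. Not all cells fitted the myeloid label. The 12 microglia markers were seen in every library (4213 to 16380 CPM in sum, where CPM is a gene's share of the library's UMIs scaled to a common total). The T and NK cell markers stood at 185 and 431 CPM in the injured retina pools and at 0 to 7.003 CPM in the other 6 libraries, with the defining genes Trac and Trbc2 at 0. The 10 oligodendrocyte markers stood at 1212 to 11807 CPM in the nerve libraries and at 70.0 to 90.1 CPM in the retina libraries. Cells like T cells, oligodendrocytes or endothelium (called non-myeloid-like cells here) made up 8.90% and 6.45% of cells in injured nerve libraries 1 and 3, 27.2% and 21.4% in uninjured nerve libraries 2 and 4, 20.2% and 42.1% in the injured retina pools, and 3.23% and 0% in uninjured retina libraries 5 and 6. Results are given for all cells, and values without the non-myeloid-like cells stand beside them where a call or a direction of the 5 genes differs.

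Fcgr3, an activating receptor of low to medium affinity, was the receptor with the most UMIs in every library. It stood at 656 and 663 CPM in injured nerve libraries 1 and 3 and at 655 and 452 CPM in uninjured nerve libraries 2 and 4. In retina it stood at 866 and 827 CPM in the injured pools of samples 1 and 2 and of samples 3 and 4, and at 693 and 862 CPM in uninjured libraries 5 and 6. The injured and uninjured ranges overlapped in retina and were nearly level in nerve, apart from the low uninjured library 4, which rests on 38 UMIs. By group mean the order was injured retina (846 ± 27.6), uninjured retina (778 ± 119), injured nerve (660 ± 5.42) and uninjured nerve (553 ± 143, CPM, SD, n = 2 each), and of the neighbours in that order only the 2 retina groups overlapped. With the non-myeloid-like cells left out, the nerve order turned, with 726 and 682 CPM in injured nerve, against 791 and 760 CPM in uninjured nerve. The retina ranges then no longer overlapped, at 941 and 963 CPM in the injured pools, against 681 and 862 CPM in uninjured retina. The group means in that subset were 952 CPM in injured retina, 776 CPM in uninjured nerve, 771 CPM in uninjured retina and 704 CPM in injured nerve.

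Fcgr1 stood at 160 and 193 CPM in injured nerve, against 188 and 143 CPM in uninjured nerve. It stood at 160 and 145 CPM in the injured retina pools, against 238 and 493 CPM in uninjured retina libraries 5 and 6. Uninjured retina was thus above the other 6 libraries, which lay between 143 and 193 CPM. The value in library 6 rests on 28 UMIs in 12 cells. The nerve groups overlapped, but not without the non-myeloid-like cells, when Fcgr1 stood at 180 and 197 CPM in injured nerve, against 233 and 220 CPM in uninjured nerve.

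Fcgr4, the activating receptor for IgG2 subclasses in the mouse, was the scarcest. It stood at 15.7 and 31.5 CPM in injured nerve (5 and 165 UMIs), against 5.69 and 11.9 CPM in uninjured nerve (2 and 1 UMIs). It stood at 114 and 80.4 CPM in the injured retina pools (162 and 25 UMIs), against 77.0 CPM (11 UMIs) and 0 CPM in uninjured retina libraries 5 and 6. Both injured retina pools were above all other libraries. The 0 in library 6 allows up to 52.8 CPM at that depth, counting error only. Injured and uninjured nerve did not overlap, but did without the non-myeloid-like cells, at 14.1 and 32.5 CPM in injured nerve, against 7.16 and 20.0 CPM in uninjured nerve.

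Fcgr2b, the inhibitory receptor, was lower in both injured retina pools than in uninjured retina and showed no such order in nerve. It stood at 157 and 324 CPM in injured nerve, against 361 and 119 CPM in uninjured nerve, and at 212 and 177 CPM in the injured retina pools, against 301 and 264 CPM in uninjured retina. The nerve groups overlapped fully, and the retina groups did not overlap. In the order of group means (uninjured retina 283 ± 26.3, injured nerve 241 ± 118, uninjured nerve 240 ± 172, injured retina 194 ± 24.7 CPM) each neighbour overlapped with the next. After removal of the non-myeloid-like cells the means were 255 ± 111 CPM in injured nerve and 318 ± 167 CPM in uninjured nerve (SD, n = 2 each), still overlapping.

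Fcer1g had the highest level of the 5 genes, in a 3′ assay in which each captured molecule gives 1 UMI whatever its length. It stood at 1883 and 2749 CPM in injured nerve libraries 1 and 3, against 1477 and 927 CPM in uninjured nerve libraries 2 and 4. In retina the direction was the opposite, with 1443 and 1190 CPM in the injured pools, against 2780 and 2639 CPM in uninjured libraries 5 and 6. Injured and uninjured libraries did not overlap in either tissue. Without the non-myeloid-like cells the levels were 2078 and 2823 CPM in injured nerve, 1782 and 1561 CPM in uninjured nerve, 1568 and 1403 CPM in injured retina, and 2825 and 2639 CPM in uninjured retina, again with no overlap within a tissue.

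**Figure D1:**
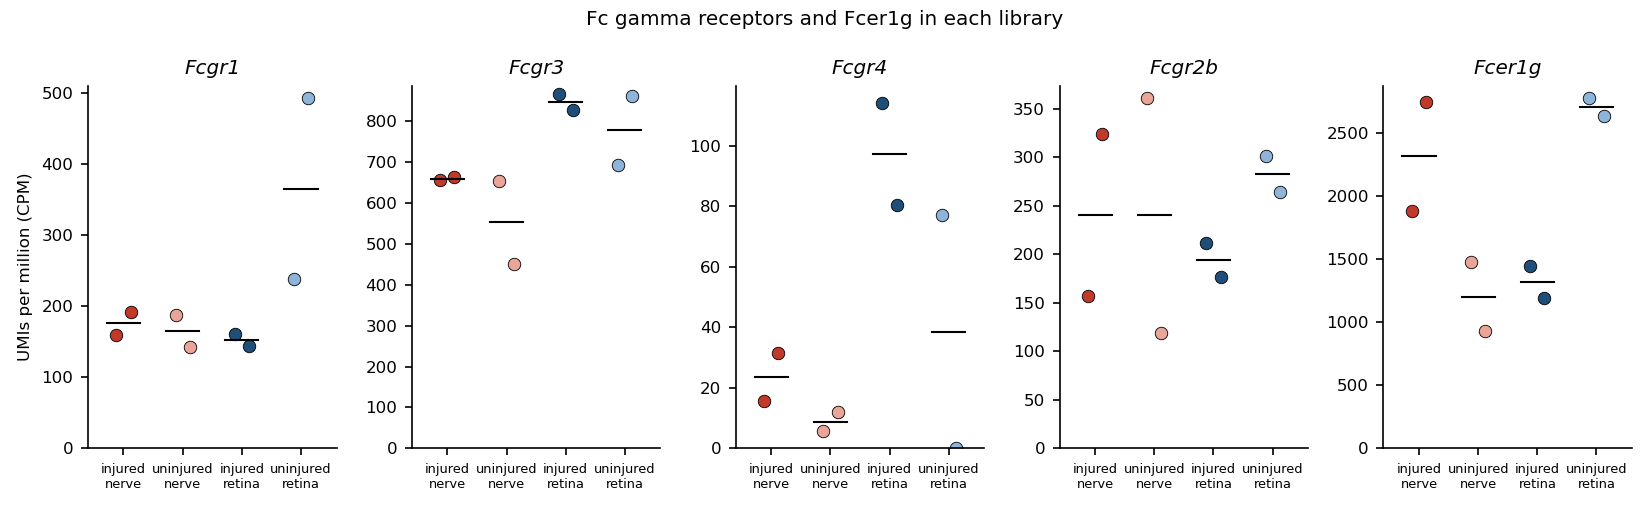
Level of each gene in CPM on a linear axis from 0, with 1 point per library and a bar at the group mean (n = 2 libraries per group). Fcer1g shows opposite orders of injured and uninjured libraries in nerve and retina, and Fcgr4 is highest in the 2 injured retina pools.

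In injured nerve no Fc gamma receptor gene differed from uninjured nerve beyond the spread between libraries. The comparison used limma on the mean ln value per library (per cell, ln of 1 plus the gene's UMIs per 10000, averaged over the cells of a library), so differences are in ln units. At an adjusted p of 0.05, 30 of the 5298 genes tested were called (0.566%), and none of the 5 genes was among them. Fcer1g had a mean ln value of 2.27 and 2.61 in injured nerve, against 1.53 and 1.53 in uninjured nerve, a difference of 0.91 ± 0.28 (SE, limma adjusted p = 0.223). The 2 injured libraries were both higher. Fcgr3 differed by 0.21 ± 0.25, Fcgr1 by -0.09 ± 0.17, Fcgr2b by -0.08 ± 0.19 and Fcgr4 by 0.07 ± 0.09, with limma adjusted p-values from 0.950 to 0.990. For Fcgr4 the summed UMIs gave a ratio of 4.44 (170 UMIs against 3), with a counting interval from 1.49 to 21.8, and most of the 170 UMIs came from injured library 3. With the non-myeloid-like cells left out, Fcer1g differed by 0.62 (limma adjusted p = 0.399).

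In injured retina Fcer1g and Fcgr1 were lower than in uninjured retina, and the other 3 genes did not pass the test. The comparison used edgeR's quasi-likelihood test on summed UMIs of the 4 retina libraries, on the log2 scale. The SE given with it is the size of the fitted difference divided by the square root of the test's F statistic. It called 653 of 3312 genes (19.7%), 322 of them lower in injured retina (9.72%), and 2 of the 5 genes are read against those shares. Fcer1g fell by 1.02 on the log2 scale (SE 0.27, edgeR adjusted p = 0.0252) and Fcgr1 fell by 1.10 (SE 0.32, edgeR adjusted p = 0.0333). Fcgr2b differed by -0.54 ± 0.29 (edgeR adjusted p = 0.206), Fcgr3 by 0.17 ± 0.26 (0.681) and Fcgr4 by 0.91 ± 0.63 (0.326). The receptor with the most UMIs and the adaptor thus had fitted differences of opposite sign in retina, although that of Fcgr3 was smaller than its error.

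Both retina calls depended on single libraries and on the filter. For Fcer1g the edgeR adjusted p was 0.211 without the pool of samples 1 and 2, 0.373 without the pool of samples 3 and 4 and 0.0813 without library 5, with log2 differences from -0.69 to -1.13 over the 4 omissions. For Fcgr1 it was 0.0969 and 0.117 without either pool, and without library 6 the difference was -0.68 (edgeR adjusted p = 0.255). With no filter on low counts neither passed (edgeR adjusted p = 0.253 and 0.171), and with DESeq2 Fcer1g did (0.0179) and Fcgr1 did not (0.0814). After removal of the non-myeloid-like cells Fcer1g differed by -0.81 (edgeR adjusted p = 0.0464) and Fcgr1 by -0.91 (0.0573). Fcgr4 passed only without library 5, when the remaining uninjured library held 0 UMIs and the summed injured level was at least 2.05-fold higher than its limit of 3 counts. Uninjured retina held 0 UMIs in the last part of the gene table, where the other groups held some, so a difference in annotation or merging and the crush cannot be told apart in retina.

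With limma and all cells, the crush effect on Fcer1g differed between nerve and retina. The difference between the 2 effects (nerve minus retina, limma, ln units) was 2.25 ± 0.39 (limma adjusted p = 0.00387), and 297 of 5298 genes were called in this contrast (5.61%), 90 of them in this direction (1.70%). Fcer1g was higher in 2 of 2 injured nerve libraries and lower in 2 of 2 injured retina pools, each against both uninjured libraries of the tissue on the CPM scale. On the ln scale the injured retina pools stood at 2.19 and 1.51, against 3.08 and 3.29 in uninjured retina. Uninjured retina also enters this contrast. A difference in annotation or merging and the crush therefore cannot be told apart in its retina part. The receptors did not pass, with differences of 0.76 ± 0.35 for Fcgr3 (limma adjusted p = 0.200), 0.47 ± 0.24 for Fcgr1 (0.259), 0.28 ± 0.26 for Fcgr2b (0.554) and -0.12 ± 0.13 for Fcgr4 (0.618).

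The size of that difference moved with the non-myeloid-like cells. Without the non-myeloid-like cells it was 1.13 ± 0.34 for Fcer1g (limma adjusted p = 0.0676), in the same direction and smaller. In that subset the mean ln values were 2.42 and 2.75 in injured nerve, 1.99 and 1.94 in uninjured nerve, 2.75 and 2.61 in injured retina, and 3.09 and 3.29 in uninjured retina. With all cells the Fcer1g difference stayed past the threshold when any 1 of the 8 libraries was left out (1.90 to 2.59). On recovered counts the difference was 2.12 with edgeR (log2, adjusted p = 0.0754) and 2.08 with DESeq2 (adjusted p = 0.00124). With limma the adjusted p was 0.0561 over every gene detected in both tissues and 0.0770 on log2(CPM + 1).

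**Figure D2:**
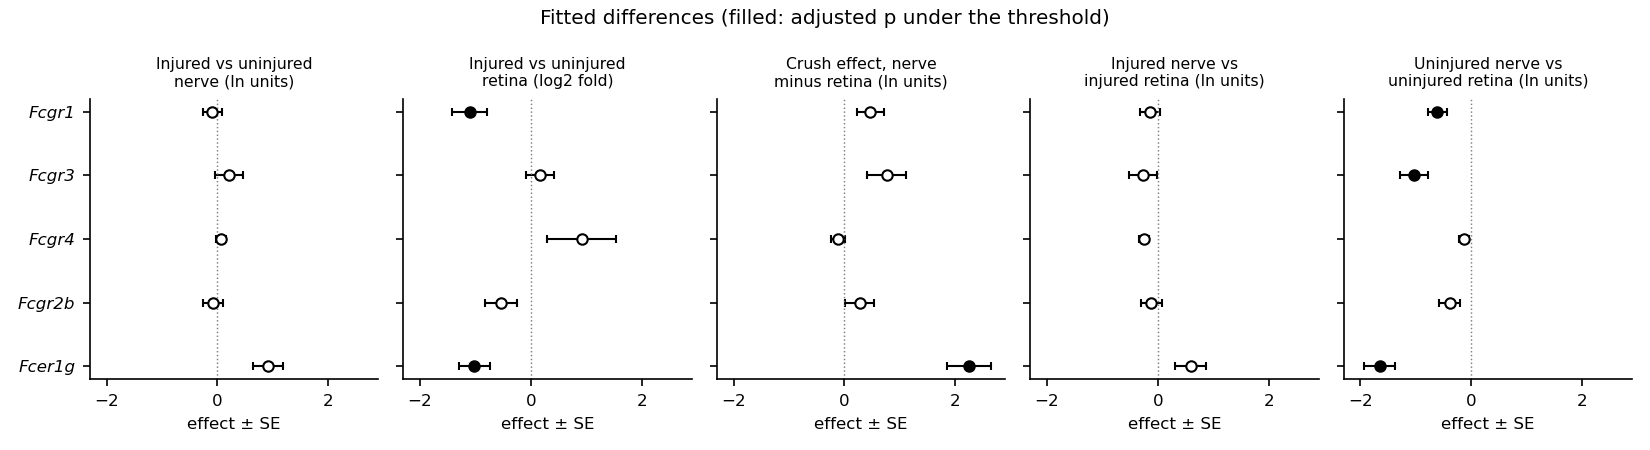
Fitted difference ± SE of each gene in the 5 comparisons, with a dotted line at 0 and filled points where the adjusted p passed. The axis is log2 for retina and ln units elsewhere, and the retina SE was derived from the edgeR F statistic. The filled points are Fcer1g and Fcgr1 in retina, Fcer1g for the difference of the crush effects, and Fcgr1, Fcgr3 and Fcer1g between the uninjured tissues.

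Uninjured nerve had lower mean ln values of 3 of the 5 genes than uninjured retina. Of 5298 genes 531 were called (10%), and 437 of them were lower in nerve (8.25%). Fcer1g stood at 1.53 and 1.53 in uninjured nerve, against 3.08 and 3.29 in uninjured retina (-1.66 ± 0.28, limma adjusted p = 0.000872). Fcgr3 stood at 0.96 and 1.15 in uninjured nerve, against 2.006 and 2.171 in uninjured retina (-1.03 ± 0.25, limma adjusted p = 0.0135). Fcgr1 stood at 0.56 and 0.52 in uninjured nerve, against 0.87 and 1.43 in uninjured retina (-0.61 ± 0.17, limma adjusted p = 0.0316). The groups did not overlap for any of these 3 genes.

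Only the Fcer1g difference between uninjured tissues passed in every limma fit without 1 library or without the non-myeloid-like cells (-1.22, limma adjusted p = 0.00383, without those cells). There Fcgr3 differed by -0.72 (0.0787) and Fcgr1 by -0.48 (0.108). The Fcgr3 call was lost without uninjured nerve library 2 (0.109), uninjured nerve library 4 (0.0583) or uninjured retina library 6 (0.0925), with differences from -1.13 to -0.94. The Fcgr1 call was lost without the same 3 libraries (0.126, 0.179 and 0.238). The Fcgr1 difference was -0.33 without uninjured retina library 6 and -0.89 without uninjured retina library 5, against -0.61 with both. On recovered counts with edgeR none of the 3 passed, with adjusted p-values of 0.119 for Fcer1g, 0.191 for Fcgr1 and 0.499 for Fcgr3. With edgeR and without the non-myeloid-like cells the Fcgr3 difference was 0.0090 on the log2 scale (adjusted p = 0.996), with the direction turned. Cells were shallower in the uninjured nerve libraries (medians of 2048 and 1470 UMIs) than in uninjured retina (4250 and 4712 UMIs), and the part of depth in the ln differences was not tested. The part of the table in which uninjured retina held 0 UMIs also bears on this comparison, so a difference in annotation or merging and the tissue cannot be told apart.

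Between the injured tissues none of the 5 genes passed, while 713 of 5298 genes were called (13.5%). Fcgr4 came closest, with mean ln values of 0.07 and 0.11 in injured nerve, against 0.47 and 0.22 in injured retina (-0.25 ± 0.09, limma adjusted p = 0.0774). The groups did not overlap. With the non-myeloid-like cells left out, the Fcgr4 difference was -0.39 (limma adjusted p = 0.0151), with DESeq2 on recovered counts it was -1.84 on the log2 scale (adjusted p = 0.0467), and with edgeR -1.79 (adjusted p = 0.0632). Without those cells Fcgr3 also passed, at 1.27 and 1.43 in injured nerve against 2.19 and 2.20 in injured retina (-0.84, limma adjusted p = 0.0267). On summed counts of the same cells Fcgr3 stood at 726 and 682 CPM in injured nerve against 941 and 963 CPM in injured retina, a log2 difference of -0.35 with edgeR (adjusted p = 0.585). Fcer1g differed by 0.59 ± 0.28 (limma adjusted p = 0.163) with all cells and by -0.09 without the non-myeloid-like cells. Cells were shallower in injured nerve (medians of 1078 and 2060.5 UMIs) than in injured retina (12989 and 3853 UMIs). The part of depth in these ln differences was not tested.

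With all cells, the share of cells with an Fcer1g UMI separated injured from uninjured libraries in both tissues, in opposite directions. Without the non-myeloid-like cells it did so in nerve only. It was 71.2% and 82.1% in injured nerve, against 54.4% and 53.6% in uninjured nerve, and 79.8% and 57.9% in injured retina, against 96.8% and 100% in uninjured retina. After removal of the non-myeloid-like cells it was 75.2% and 86.4% in injured nerve, against 69.3% and 68.2% in uninjured nerve. In retina it was then 100% in both injured pools, against 96.7% and 100% in uninjured libraries, so the retina groups overlapped. The Fcgr3 share was 78.9% and 57.9% in the injured retina pools, against 100% in both uninjured retina libraries, and 98.9% and 97.0% in the injured pools without the non-myeloid-like cells. Averaged over the tissues, so that opposite changes in nerve and retina cancel, injured minus uninjured shares were -8.14 percentage points for Fcgr1, -6.13 for Fcgr2b, -11.9 for Fcgr3, 13.05 for Fcgr4 and -3.41 for Fcer1g, with exact two-sided permutation p-values of 0.333, 0.667, 0.278, 0.278 and 0.833 (Benjamini-Hochberg adjusted 0.556 to 0.833). Crush was reassigned within each tissue in 36 ways, so that no p under 0.0556 could arise and no share could pass at 0.05. Without the non-myeloid-like cells the averages were 0.428 points for Fcgr1, 0.506 for Fcgr2b and 6.84 for Fcer1g, with the sign turned, and -1.94 for Fcgr3 and 18.9 for Fcgr4 with the same sign. Fcgr1 was seen in 18.5% and 39.6% of cells in injured nerve, 34.0% and 32.1% in uninjured nerve, 61.5% and 43.9% in injured retina, and 54.8% and 75% in uninjured retina. Cells were also thinned to 1000 UMIs apiece, for which 297 shallower cells had to be dropped. The Fcgr1 difference was then -10.7 points, at the smallest p that the permutations can give (exact p = 0.0556). The other thinned differences were -5.40 points for Fcgr2b, -2.50 for Fcgr3, 2.46 for Fcgr4 and -6.01 for Fcer1g (exact permutation p from 0.222 to 0.722). Those of Fcgr3 and Fcgr4 were thus much smaller than without thinning. The thinned Fcgr1 shares were 9.87% and 14.2% in injured nerve, 16.6% and 15.3% in uninjured nerve, 11.7% and 9.85% in injured retina, and 20.8% and 35.9% in uninjured retina. Both injured libraries were below both uninjured libraries in each tissue.

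Most cells with a receptor UMI also had an Fcer1g UMI. Among cells with a UMI of any Fc gamma receptor, Fcer1g was also seen in 83.5% and 92.4% in injured nerve, 83.3% and 75% in uninjured nerve, 100% and 97.1% in injured retina, and 96.8% and 100% in uninjured retina. Among cells with no receptor UMI, Fcer1g was seen in 33 of 61 and 109 of 194 in injured nerve (54.1% and 56.2%), and in 6 of 43 and 3 of 12 in uninjured nerve (13.95% and 25%). In the injured retina pools it was seen in 1 of 23 and 0 of 23 such cells, and uninjured retina had no such cell. The 2 pools held 22 and 24 T-like cells, all with 0 Fcer1g UMIs and, apart from 1 cell with Fcgr3, with 0 receptor UMIs. Nearly all cells with no receptor UMI in these pools were therefore T-like. Over all cells the Fcer1g shares were 71.2% and 82.1% in injured nerve and 54.4% and 53.6% in uninjured nerve. They were 79.8% and 57.9% in injured retina and 96.8% and 100% in uninjured retina. Cells with no receptor UMI were shallow in nerve, at medians of 787 and 926 UMIs in injured and 1298 and 1095.5 UMIs in uninjured libraries. Cells with a receptor UMI had medians of 1286 and 3471 UMIs in injured and 2751.5 and 1899 UMIs in uninjured nerve. The part of depth in these shares was not tested. The oligodendrocyte-like cells, a type not known for Fcer1g, showed it in 20.7% at a median depth of 1678 UMIs, between the 2 uninjured nerve shares. Of the 26 oligodendrocyte-like cells in uninjured nerve library 2, Fcgr1, Fcgr2b, Fcgr3 and Fcgr4 were seen in 1, 1, 3 and 0 cells. Most of these 26 were therefore among that library's 43 cells with no receptor UMI. Uninjured nerve library 4 held 4 oligodendrocyte-like cells, beside 12 with no receptor UMI. Injured nerve libraries 1 and 3 held 13 and 39, beside 61 and 194. The part of cell make-up in the shares was not tested. Doublets or free RNA as a source of Fcer1g in oligodendrocyte-like cells were not tested.

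Fcgr3 made up most receptor UMIs in every library, from 52.9% in uninjured retina library 5 to 67.3% in the injured retina pool of samples 3 and 4. The inhibitory Fcgr2b made up 15.9% (95% exact interval 12.0% to 20.4%) and 26.8% (25.7% to 27.9%) in injured nerve, against 29.9% (25.6% to 34.5%) and 16.4% (8.15% to 28.1%) in uninjured nerve. In the injured retina pools it made up 15.7% (14.1% to 17.4%) and 14.4% (11.03% to 18.3%), against 23.0% (17.2% to 29.7%) and 16.3% (9.42% to 25.5%) in uninjured retina. The injured share was lower by 3.22 points on average (difference -3.22, exact two-sided permutation p = 0.389), and the difference was 0.155 points without uninjured nerve library 2.

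Per receptor UMI, Fcer1g gave 1.90 and 2.27 UMIs in injured nerve, against 1.22 and 1.28 in uninjured nerve, and 1.07 and 0.969 in injured retina, against 2.12 and 1.63 in uninjured retina. The order of injured and uninjured libraries was therefore opposite in the 2 tissues for this ratio as well, which needs no library scaling. Against the sister adaptor Tyrobp the picture differed, a comparison chosen after its values were seen. Fcer1g gave 0.656 and 0.525 UMIs per Tyrobp UMI in injured nerve, against 0.922 and 0.963 in uninjured nerve, and 0.870 and 0.969 in injured retina, against 0.898 and 0.987 in uninjured retina. The 2 injured nerve libraries lay below the other 6.

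**Figure D3:**
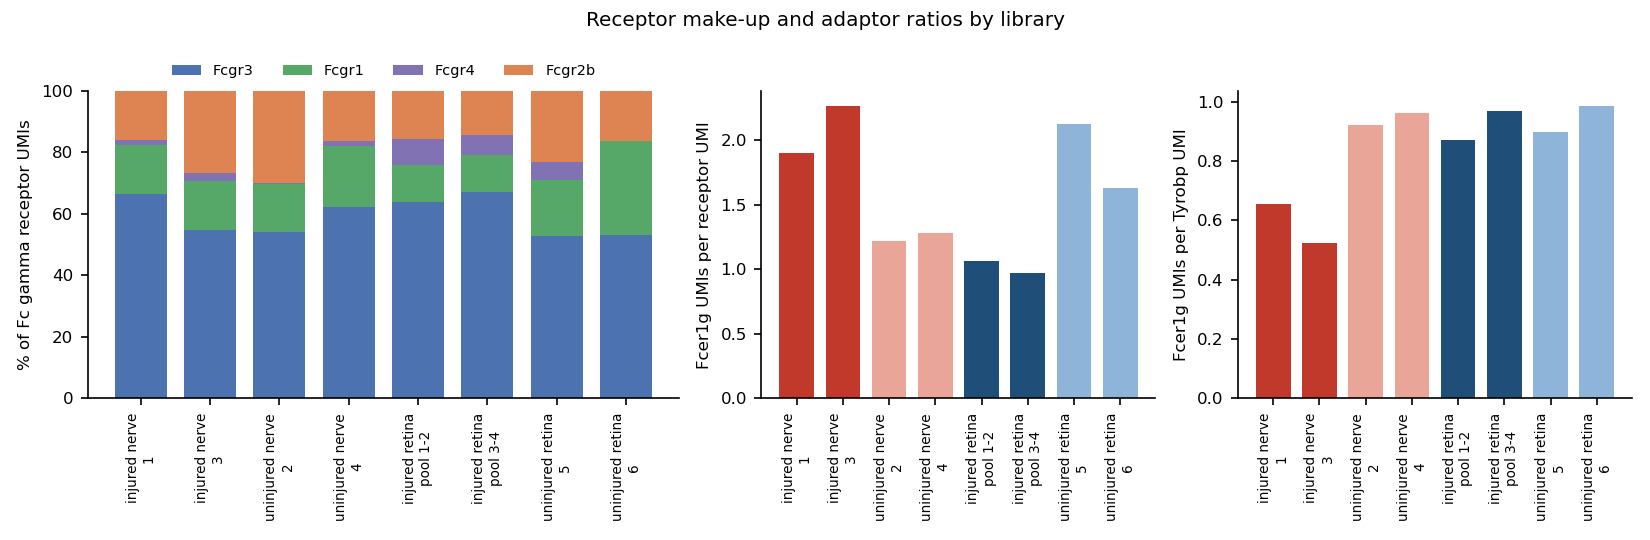
Left, the percentage of Fc gamma receptor UMIs from each receptor in each library, stacked to 100%. Middle and right, Fcer1g UMIs per receptor UMI and per Tyrobp UMI. Fcgr3 is the largest part in all 8 libraries, and the ratio to Tyrobp is lowest in the 2 injured nerve libraries.

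Cells were clustered without the 5 genes, so levels by cluster are given as a description. Fcgr4 was highest, at 121 CPM and in 50.4% of 117 cells, in a cluster led by the heat shock genes Hsp90aa1 and Hspa1a, which held injured retina cells alone (84 and 33 cells of the 2 pools). In the other clusters, the T-like and oligodendrocyte-like ones apart, it stood between 23.4 and 32.8 CPM. The microglia-like cells stood at 41.8 CPM (9 UMIs) once endothelial-like cells were set aside. Their cluster stood at 61.1 CPM (8 UMIs) in uninjured retina library 5 and at 0 CPM in library 6. It held 30 and 12 cells of these 2 libraries and 0 cells of the injured retina pools. The retina comparison therefore set largely different clusters against each other, and what separated them was not tested. A cluster led by Gpnmb, a gene of lipid-laden phagocytes, took 195 of its 203 cells from injured nerve library 3 and had Fcer1g at 2926 CPM. A cluster led by the chemokine gene Cxcl13, with 97 and 335 of its 451 cells from injured nerve libraries 1 and 3, had Fcer1g at 2768 CPM and Fcgr2b at 192 CPM.

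Border macrophage-like cells (81 cells with Mrc1, F13a1 and Stab1 among the leading genes) had the highest Fcgr2b level, 505 CPM in 69.1% of cells. It was 516 CPM in injured nerve library 3 and 530 CPM in uninjured nerve library 2, the 2 libraries with more than 10 such cells. These cells formed 44 of 103 cells in uninjured nerve library 2 and 1 of 28 in library 4, the libraries with 361 and 119 CPM of Fcgr2b. The injured nerve libraries did not follow that order, with 9 of 146 cells at 157 CPM in library 1 and 27 of 682 cells at 324 CPM in library 3. The microglia-like cells (48 cells after endothelial-like ones were set aside, most of them from uninjured retina) had 343 CPM of Fcgr1, 278 CPM of Fcgr2b and 2423 CPM of Fcer1g. The 47 T-like cells had 0 UMIs of Fcgr1, Fcgr2b, Fcgr4 and Fcer1g, which allows a share of cells with a UMI of up to 6.38%, and 3 Fcgr3 UMIs in 1 cell.

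**Figure D4:**
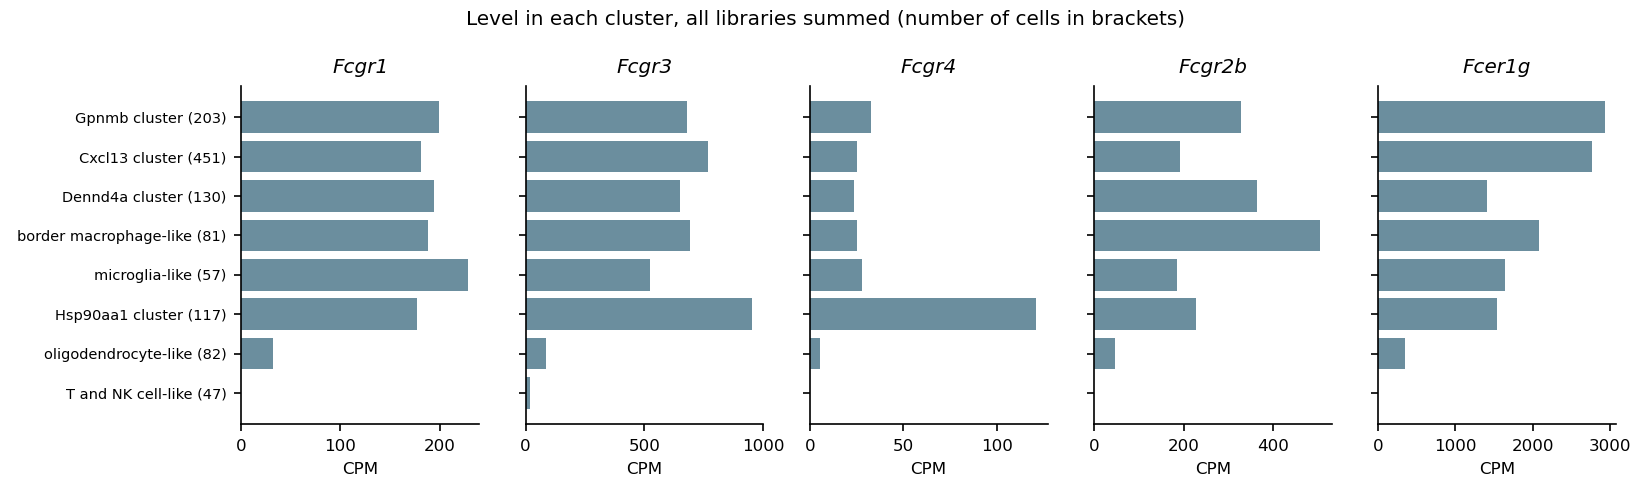
CPM of each gene in each cluster, UMIs of all libraries summed, bars starting at 0. Unnamed clusters carry their leading gene. The microglia-like bars include that cluster's endothelial-like cells (57 cells in all), which the text sets aside. They stand at 229 CPM of Fcgr1, 186 CPM of Fcgr2b and 1636 CPM of Fcer1g. Fcgr4 stands out in the Hsp90aa1 cluster of injured retina and Fcgr2b in the border macrophage-like cluster, and all 5 genes are near 0 in T-like cells.

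Of 65 genes of the pathway (ligands, receptors that also use Fcer1g, kinases, scaffolds, phagocytic cup and inhibitors), 40 could be tested with limma and 35 in retina with edgeR. None of the ligands and none of the other receptors that use Fcer1g were among those tested, so the counts and medians below leave them out. The 8 immunoglobulin ligand genes had 0 UMIs in every library, in a part of the table where uninjured retina held no UMI at all. In nerve 1 of the 40 list genes was called (2.5%, beside 0.566% of all genes tested), and this was Tyrobp, higher in injured nerve at 2871 and 5235 CPM, against 1602 and 963 CPM in uninjured nerve (1.52 ± 0.27 in ln units, limma adjusted p = 0.0112). The call was lost without injured nerve library 3 (0.192) or uninjured nerve libraries 2 (0.0883) or 4 (0.0519), at differences from 1.31 to 1.52. The median of the list was 0.03 beside -0.02 over all genes tested. The 5 kinases and the 9 phagocytic cup genes tested had 0 calls there by limma, a count read against the same 0.566%.

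In retina 2 of the 35 list genes were higher and 4 lower in injured libraries (17.1% called, near the 19.7% of all genes), with a list median of 0.05 beside 0.07 over all genes. Tyrobp fell by 0.98 (SE 0.29, edgeR adjusted p = 0.0371), with 1657 and 1229 CPM in injured against 3096 and 2674 CPM in uninjured retina. The scaffold gene Lat2 fell by 1.21 (0.0191), the inhibitory receptor gene Sirpa fell by 1.143 (0.0211), and the cup gene Dock2, which activates Rac, rose by 1.60 (0.0397). With the non-myeloid-like cells left out, the differences were 0.77 for Dock2, -0.93 for Sirpa and -0.78 for Tyrobp, and these calls were lost (edgeR adjusted p = 0.208, 0.0516 and 0.0636). Each of the Lat2, Sirpa, Tyrobp and Dock2 calls was also lost without library 5 and without at least 1 of the injured pools. The microglial Fc receptor-like gene Fcrls stood at 0.704 and 0 CPM in injured against 364 and 334 CPM in uninjured retina, a ratio of 0.00162 with a counting interval of 4.05e-05 to 0.00934. The PI3-kinase adaptor gene Pik3ap1 stood at 137 and 164 CPM in injured retina and at 0 in uninjured retina, which is at least 9.45-fold higher over the group. With these 2 genes at those values the list median remained 0.05.

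The contrast of the 2 crush effects called 4 of 40 list genes (10%, beside 5.61% of all genes). Tyrobp (2.76 ± 0.39), Fcrls (1.08 ± 0.19) and Lat2 (0.76 ± 0.19) had the same sign as Fcer1g and Pik3ap1 the opposite (-0.60 ± 0.10), with limma adjusted p-values of 0.000756, 0.00387, 0.0276 and 0.00387. The Lat2 call was lost without the injured retina pool of samples 3 and 4 (0.114), injured nerve library 3 (0.131) or uninjured nerve libraries 2 (0.0821) or 4 (0.0946), at differences from 0.66 to 0.77. The list median was 0.00 beside -0.05 over all genes. Between uninjured nerve and uninjured retina 6 of 40 were called (15%, beside 10% of all genes) and all were lower in nerve (beside 8.25% of all genes): Fcrls, Tyrobp, Lat2, the kinase gene Lyn, Cd33 and Sirpa, with differences from -1.56 to -0.41. The Lyn, Cd33 and Sirpa calls were lost without the non-myeloid-like cells (limma adjusted p = 0.0941, 0.172 and 0.231, at -0.54, -0.31 and -0.42) and without single libraries.

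Between injured nerve and injured retina 10 of the 40 list genes were called (25%, beside 13.5% of all genes). Tyrobp was higher in nerve (1.20 ± 0.27, limma adjusted p = 0.00984). Lower in nerve were Dock2 (-0.84), Elmo1 (-0.60) and the WASP-binding gene Wipf1 (-0.58) of the phagocytic cup, and Pik3ap1 (-0.53), the PI3-kinase gamma gene Pik3cg (-0.26) and the docking protein gene Gab2 (-0.23) of the scaffolds and lipases. The inhibitor genes Inpp5d (-0.51) and Cd33 (-0.40) and the adaptor gene Hcst (-0.30) were lower as well. These are ln differences towards the tissue with the shallower cells, and the part of depth in them was not tested. Only Pik3ap1 passed in every fit that left out 1 library. After removal of the non-myeloid-like cells 4 of the 10 calls were lost, those of Tyrobp (0.54), Dock2 (-0.40), Elmo1 (-0.48) and Hcst (-0.02). Hcst stood at 40.8 and 95.7 CPM in injured nerve, against 59.8 and 99.7 CPM in injured retina, so the groups overlapped, and its sign turned on summed counts with edgeR (0.045). The list median was -0.20 beside -0.10 over all genes in that comparison, and -0.18 beside -0.04 between the uninjured tissues.

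Over the 8 libraries the genes most like Fcer1g in log2(CPM + 10) were Spcs1, C1qb, Abhd12, Ftl1 and C1qc (Pearson r 0.963 to 0.974 among 5298 genes). C1qb and C1qc encode chains of complement C1q. For Fcgr1 they were Ddt, Pam16, Tfg, Tmem147 and Hdgfl2 (0.954 to 0.984), and for Fcgr2b Blvra, Dctn3, Tmbim4, Fundc2 and Clip2 (0.903 to 0.954). For Fcgr3 they were Znfx1, Ing3, Hnrnpd, Utp14a and Gm2000 (0.956 to 0.982), and for Fcgr4 Prkar2a, Xpa, Ncl, Psme1 and Dnttip2 (0.916 to 0.982). The 5 Fc receptor genes were less like each other, from -0.49 for Fcgr1 and Fcgr4 to 0.68 for Fcgr1 and Fcer1g. Without the non-myeloid-like cells r with the named genes ran from 0.815 to 0.978 for Fcer1g, 0.738 to 0.969 for Fcgr1, 0.484 to 0.931 for Fcgr2b, 0.462 to 0.609 for Fcgr3 and 0.651 to 0.879 for Fcgr4. Between Fcgr3 and Fcer1g r was 0.38 with all cells and -0.68 without the non-myeloid-like cells, between Fcgr2b and Fcgr3 0.38 and -0.29, and between Fcgr1 and Fcgr3 0.42 and -0.01. These values describe 8 points that share depth and cell make-up, and carry no test.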

How the data were processed

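Per the series' design text and the submitters' processing notes, 3′ libraries (10x v2) were demultiplexed with bcl2fastq 2.17.1.14, aligned to mm10 with Cell Ranger 1.3, filtered at 200 to 6500 genes per cell and merged with Seurat 4.0.3 and harmony. The authors deposited UMI counts for retina cells. For optic nerve cells the deposited values are on a natural log scale, ln(1 + x) with x the UMIs per 10000 of the cell's total. Undoing the log gave whole counts, within a tolerance of 0.01, in all 959 nerve cells (1374534 values), and the genes kept covered 96.6% of the total in the median cell. The 1168 cells of the table equal the number the study states. All columns were assigned to a library.

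Retina was tested with edgeR 4.0.16 (TMM, filterByExpr, summed counts, the 27998 entries that every group could hold). The other comparisons used limma 3.58.1 (trend, mean ln per library, 8 libraries, genes detected in 10% or more of the cells). p-values were adjusted by Benjamini-Hochberg over all genes tested, and DESeq2 1.42.0 was an alternative. Simulated retina counts used the same assumed spread for every gene, which was not estimated from these libraries. With that spread edgeR recovered 4.48% of genes changed by 1 and 49.3% of genes changed by 2 on the log2 scale (3312 genes). Simulated nerve values used each gene's fitted spread. There limma recovered 68.7% of genes changed by 0.5 and 95.5% of genes changed by 1 ln unit (5298 genes). Intervals are exact Clopper-Pearson 95% intervals, limits for 0 use 3 counts, and both cover counting error only. Clusters were made without the 5 genes in scanpy 1.11.5, with Leiden at resolution 0.5 on 15 neighbours in 30 components of 2000 variable genes. A cluster was named when at least 3 markers of a list were among its 50 leading genes, a rule chosen after the clusters' genes were seen, and cells with 5 of 14 endothelial markers were called endothelial-like. Doublets were not called. Between libraries 2 barcodes were shared, each by 2 cells. The genes named were the 5 genes, every list gene called (12 at most per comparison), and the 5 genes with the highest r to each. The genes, lists and alternatives were chosen with earlier results of these data known.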

Additional observations from a re-analysis of the deposited data

Results flagged for a closer look

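The difference of the crush effects between nerve and retina (nerve minus retina, limma, ln units) passed for Fcer1g at 2.25 ± 0.39 (limma adjusted p = 0.00387). It also passed for the sister adaptor Tyrobp at 2.76 ± 0.39 (0.000756), for Fcrls at 1.08 ± 0.19 (0.00387), for Lat2 at 0.76 ± 0.19 (0.0276) and, with the opposite sign, for Pik3ap1 at -0.60 ± 0.10 (0.00387). Without the non-myeloid-like cells the difference was 1.64 for Tyrobp (limma adjusted p = 0.00804), 1.03 for Fcrls (0.00662), -0.88 for Pik3ap1 (0.000876), 0.52 for Lat2 (0.137) and 1.13 for Fcer1g (0.0676). For all of these genes, a difference in annotation or merging and the crush cannot be told apart in the retina part of the contrast.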

How the results depend on the processing

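Of 310 values of the 5 genes under other settings, 226 kept their direction and their side of the threshold, 40 kept the direction and lost the call, 7 gained one and 37 changed sign. The setting edgeR on recovered counts without the non-myeloid-like cells was chosen after seeing the data. The cause of these changes was not tested. Depth limits Fcgr4 most, with 0 to 25 UMIs in 6 of 8 libraries.

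The number of genes called in retina was 208 with edgeR on all 8 libraries, and 415 to 699 when 1 library was left out. In nerve it was 53 with edgeR and 131 with DESeq2 on recovered counts, 6 with limma on log2(CPM + 1), 1 over every gene detected in both tissues, 16 with edgeR without the non-myeloid-like cells, and 7 to 67 when 1 library was left out. For the difference of the crush effects it was 72 with edgeR, 102 and 54 with limma on log2(CPM + 10) and log2(CPM + 1), 28 over all genes, 184 with limma and 48 with edgeR without the non-myeloid-like cells, and 86 to 541 when 1 library was left out. Between uninjured tissues it was 120 with edgeR, 233 with DESeq2, 205 on log2(CPM + 1), 260 with the 4 libraries compared alone, 52 with edgeR without the non-myeloid-like cells, and 227 to 907 when 1 library was left out. Between injured tissues it was 383 with edgeR, 434 with DESeq2, 87 and 31 on log2(CPM + 10) and log2(CPM + 1), 440 over all genes, 1168 with the 4 libraries compared alone, 248 with edgeR without the non-myeloid-like cells, and 143 to 290 when 1 library was left out.

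The sign changed for these values, none of which had been called with all cells except that of Fcgr3 between uninjured tissues and that of Hcst. In retina Fcgr3 differed by -0.55 with limma on ln values. In nerve, edgeR, DESeq2 and limma on log2(CPM + 10) and log2(CPM + 1) gave 0.27, 0.25, 0.095 and 0.10 for Fcgr1 and 0.14, 0.12, 0.11 and 0.12 for Fcgr2b. Fcgr2b there ran from -0.29 to 0.13 when 1 library was left out, and Fcgr3 was at -0.0090 without the non-myeloid-like cells. For the difference of the crush effects, limma without the non-myeloid-like cells gave -0.16 for Fcgr2b and -0.12 for Fcgr3, edgeR without them gave -0.36 for Fcgr3 and 0.58 for Fcgr4, and edgeR and DESeq2 with all cells gave 1.13 and 1.03 for Fcgr4, which ran from -0.27 to 0.037 when 1 library was left out. Between uninjured tissues, edgeR without the non-myeloid-like cells gave 0.22 for Fcgr2b and 0.0090 for Fcgr3, and Fcgr4 was at 0.072 on log2(CPM + 1) and from -0.29 to 0.022 when 1 library was left out. Between injured tissues, the same 4 fits gave 0.29, 0.30, 0.19 and 0.20 for Fcgr1 and 0.42, 0.42, 0.21 and 0.22 for Fcgr2b, and edgeR without the non-myeloid-like cells 0.23 and 0.35. Fcgr2b ran there from -0.33 to 0.095 when 1 library was left out, Fcer1g was at -0.094 with limma without the non-myeloid-like cells, and Hcst was at 0.045 with edgeR, 0.00050 with DESeq2 and 1.09 with edgeR without the non-myeloid-like cells.

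Shares of cells differed by 0.428 points for Fcgr1, 0.506 for Fcgr2b and 6.84 for Fcer1g without the non-myeloid-like cells. When 1 library was left out they ran from -14.8 to 2.55 for Fcgr2b and from -8.90 to 2.07 for Fcer1g, and the Fcgr2b share of receptor UMIs from -6.59 to 0.155.

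The injured retina pools and injured nerve libraries share sample numbers in the labels, but nothing says that a number marks a shared animal or batch, and their deviations from the group means had a correlation of -0.18 over 5298 genes. With the replicate number as a block, 530 genes were called between injured tissues, against 713 without it, and Fcgr4 passed (limma adjusted p = 0.0440).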
